A study of Mus musculus with 18 samples.

Results

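Type I interferon-stimulated genes were followed in mouse embryonic fibroblasts (MEFs) that lacked Pole4, Trp53 or both. The set held 39 genes, listed by symbol as genes that type I interferon switches on. Their Ensembl identifiers matched 39 of the 51912 rows of the count table. When the set was chosen, 1 library (Pole4+/+ Trp53-/- replicate 1) was already known to be high in it. The excess of that library is therefore described below and not tested. Pole4 encodes an accessory subunit of DNA polymerase epsilon, which copies the leading strand, and Trp53 encodes the tumour suppressor p53. RNA-seq was carried out on 18 libraries of primary MEFs at passage 1, grown with 15% FBS in 5% oxygen, from mid-gestation embryos of doubly heterozygous parents on a C57BL/6 background. Pole4+/+ and Pole4-/- cells were each Trp53+/+, Trp53+/- or Trp53-/-, which gives 6 genotypes of 3 libraries. Both null alleles are constitutive, so each was lost throughout the embryo, and the labels name no interferon or other agent. Per the methods, MEFs came from single embryos without head, heart and liver, so a culture can hold several cell types. No source says which embryo a library came from, so the p-values measure the spread between these libraries, which may be technical.

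Cells release type I interferon when sensors find viral or misplaced nucleic acid. RIG-I (encoded by Ddx58) and MDA5 (Ifih1) read double-stranded RNA, and cGAS reads DNA in the cytosol. The secreted interferon binds its receptor, the kinases JAK1 and TYK2 phosphorylate STAT2, which joins IRF9 in the complex ISGF3, which binds the interferon-stimulated response element (ISRE) before its target genes. The products block viral RNA and protein synthesis (the OAS, IFIT and MX families and PKR), modify proteins with the ubiquitin-like ISG15, present antigen, and raise the level of the sensors and factors themselves. Fibroblasts make interferon beta on infection and hold a low level of many of these genes without it.

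The ISRE letters in the members' promoters are shown first, because ISGF3 acts on these genes through them. The core searched was GAAA, any 2 bases and GAAA again, on both strands, in the 250 bases before each gene start in RefSeq's promoter table (GRCm38.p6), which held a window for 29 of the 39 members. The motif was present in 11 of these 29 members (37.9%), against 2.98% of all 32851 promoters. The stretches of 7 members are printed 5′ to 3′ on the gene's strand, with the ISRE letters in capitals (TTTC spaced by 2 bases from TTTC is the same motif read on the other strand).
Isg15: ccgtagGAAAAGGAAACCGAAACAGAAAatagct
Ifit1: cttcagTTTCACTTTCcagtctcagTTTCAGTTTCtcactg
Ifit3: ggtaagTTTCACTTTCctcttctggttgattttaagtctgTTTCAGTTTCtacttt
Ifit3b: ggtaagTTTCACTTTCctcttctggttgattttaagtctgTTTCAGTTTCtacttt
Bst2: ttccagGAAAATGAAACTGAAAggctgc
Trim30a: ctttagTTTCTTTTTCtcagtt
Cxcl10: gctttgGAAAGTGAAActtacc
Isg15 carried 3 matches in a row at chr4:156200869-156200902 on the minus strand, sharing bases, as 3 of the members' windows did. The Ifit1 stretch lay at chr19:34640779-34640819 on the plus strand and held 2 separate matches. Ifit3 (chr19:34583367-34583422, plus strand) and Ifit3b (chr19:34607763-34607818, plus strand) were the same at all 56 bases printed, a reminder that these are near-identical gene copies whose reads the counting may have split. Bst2 (chr8:71537581-71537608), Trim30a (chr7:104465214-104465235) and Cxcl10 (chr5:92349087-92349108) lay on the minus strand. Stat2, Oas1a, Oas3 and Rsad2 were the other 4 members with a match. No match was present in the windows of Tap1, Samd9l, Trim25, Ifit2, Ddx58, Irf7 or Irf9, which says only that these letters are not in those 250 bases.

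Library depth ranged from 9535971 to 35319918 counts. Levels are given as CPM, a gene's counts relative to the library's total after TMM scaling, in the order of replicates 1, 2 and 3. Trp53 was at 86.6 to 96.1 CPM in Pole4+/+ Trp53+/+ cells and at 8.65 to 12.1 in the 6 Trp53-/- libraries. Pole4 was at 22.9, 20.8 and 16.3 CPM in Pole4+/+ Trp53+/+ cells and between 9.26 and 12 in the 9 Pole4-/- libraries, so that part of the signal remained in the latter. Its log2 fold change on Pole4 loss was -0.95, -0.97 and -0.93 with 2, 1 and 0 copies of Trp53, with adjusted p-values of 0.022, 0.26 and 0.3 by edgeR. The library labelled Pole4+/+ Trp53-/- replicate 1 stood apart. Its Pole4 level was 14.2 CPM against 25.4 and 26.4 in its sister libraries, the lowest of the 9 Pole4+/+ libraries. The Y-linked gene Ddx3y was at 2.76 CPM in it, against 0.0776 and 0 in its sisters and 85.3 to 99.2 in the male libraries. Whether its label describes a single culture was not tested. The members' calls by edgeR, their medians and their non-overlap in the comparisons that include that library are given below with and without it. The 12 fibroblast markers were above 1 CPM in all libraries, and the 10 markers of T, B and NK cells summed to at most 0.268 CPM.

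Most members were expressed at low levels. A gene was tested only where it passed a filter on low counts, close to 0.439 CPM in at least 3 libraries, and 29 of the 39 members did so, each through libraries of at least 3 genotypes. Per kilobase of exon, Eif2ak2, which encodes the RNA-activated kinase PKR, was highest at 6.52 mean CPM, followed by Trim25 at 4.63 and Bst2 at 4.15. Mx1, an antiviral GTPase, was lowest at 0.00335 and had 6 counts in all 18 libraries. The 10 members that failed the filter were Oas1a, Oas2, Oas3, Oasl1, Mx1, Mx2, Rsad2, Usp18, Ifi27l2a and Psmb9, with 6 to 127 counts each over the 18 libraries.

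**Figure D1:**
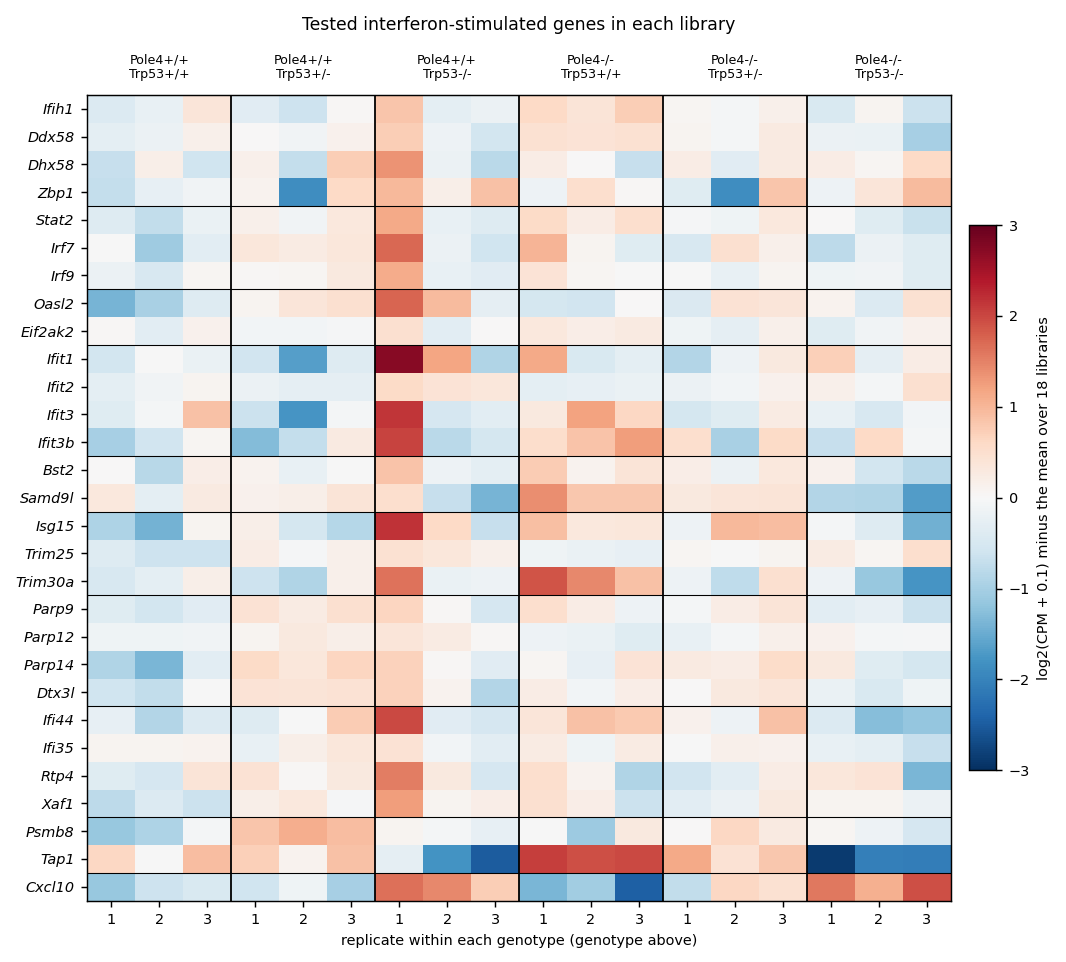
Heat map of the 29 tested members (rows, ordered by role with lines between roles) in the 18 libraries (columns, 3 per genotype); colour is log2(CPM + 0.1) minus the gene's mean over the libraries, limited to 3 either way. Replicate 1 of Pole4+/+ Trp53-/- is red in nearly every row, Tap1 is red in Pole4-/- Trp53+/+ and blue in Pole4-/- Trp53-/- libraries, and Cxcl10 is red in all Trp53-/- libraries.

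The interferon genes themselves were almost silent. Of 14 listed, 11 had no count in any library, among them Ifnb1 (interferon beta) and Ifng (interferon gamma), where 0 counts allow up to 3 in a library. Ifnz, a type I interferon of mouse, had 82 counts over 14 libraries, with at most 15 in any library, and the other 2 genes had 5 together. None passed the filter. The intervals and limits of counts here cover counting error only.

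Replicate 1 of Pole4+/+ Trp53-/- held the highest level of 28 of the 39 members among the 18 libraries, while 11.7% of all genes tested were highest there. All 29 tested members were above both sister libraries in it, against 41.2% of all genes. Its members lay a median of 1.11 (log2) above the sisters, against 0.02 for all genes, a median that TMM scaling holds near 0. Of the 29, 19 lay more than 1 above, against 12.1% of all genes. The library also differed from its sisters over genes in general. Over genes with a mean of at least 100 counts, its median chi-square was 24 and 17.4 against the sisters. It was 3.47 between the sisters and at most 5.54 within other genotypes, where sampling noise alone gives 0.455. No other library of the 18 departed as far from its own genotype in the members. Their median ran elsewhere from -0.85 (replicate 3 of the same genotype) to 0.39. Replicate 3 was compared with a mean that includes replicate 1, so its -0.85 also carries the excess of replicate 1.

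**Figure D2:**
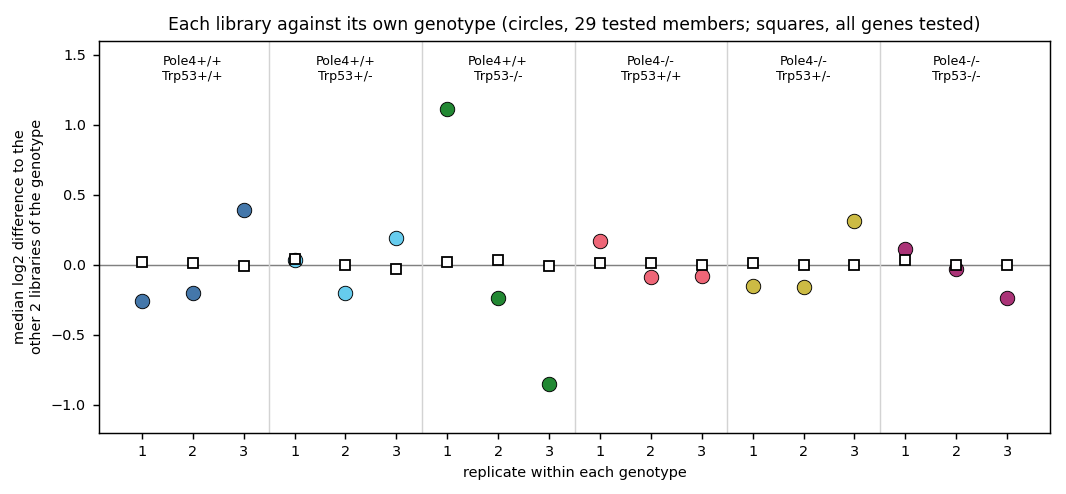
Median log2 difference of each library to the other 2 libraries of its genotype, over the 29 tested members (circles) and over all genes tested (squares). The circle of Pole4+/+ Trp53-/- replicate 1 is at 1.11 and that of replicate 3 at -0.85, while every square lies near 0, where TMM scaling holds it. The value of replicate 3 is taken against a mean that includes replicate 1.

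The size of that library's excess differed between members. Ifit3b was 10.4 times the mean of its sisters in CPM, on 52, 3 and 2 counts in the 3 libraries, and Ifi44 7.7 times, on 49, 5 and 2 counts. Ifit3 was 6.54 times the mean of its sisters, on 158, 16 and 9 counts, Irf7 5.17 times, on 73, 12 and 4 counts, and Ifit1 5.08 times, on 221, 52 and 5 counts. At the other end were Ifit2 at 1.15 times, Parp12 at 1.16, Trim25 at 1.17 and Psmb8 at 1.2. The 8 tested members with an ISRE in the window had a median ratio of 4.41 (from 1.47 for Cxcl10 to 10.4), and the 16 without had a median of 2.12 (from 1.15 to 7.7), ranges that overlap. Usp18, a protease that removes ISG15, failed the filter but had 56, 6 and 2 counts in the 3 Pole4+/+ Trp53-/- libraries. Macrophage markers were not high in the library, at a summed 9.74 CPM over 16 genes against 34.5 and 40.7 in its sisters and 8.07 to 78.4 over all libraries. Epithelial markers were lower in it than in any other library, at 7.22 CPM over 7 genes against 28 and 32.5 in the sisters. Ribosomal RNA took 1.82% of its counts against 13.1% and 2.32% in the sisters. Of what else differed in this library, the part in the members' levels was not tested.

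Among the sensors, Ddx58 was at 17.9, 19.6 and 24.6 CPM in Pole4+/+ Trp53+/+, at 22.1, 20.5 and 24.3 in Pole4+/+ Trp53+/- and at 36.6, 19.8 and 15 in Pole4+/+ Trp53-/- cells. In Pole4-/- cells it was at 30.3, 29.5 and 30.4 with Trp53+/+, 23.4, 21.2 and 26.4 with Trp53+/- and 19.4, 19.1 and 11 with Trp53-/-. The Pole4-/- Trp53+/+ libraries thus lay above every library but the 1 that stood apart. Ifih1 was at 2.96, 3.41 and 5.1 CPM with Trp53+/+, 3.13, 2.53 and 4.08 with Trp53+/- and 7.14, 3.22 and 3.48 with Trp53-/- in Pole4+/+ cells. In Pole4-/- cells it was at 6.07, 5.26 and 6.69 CPM with Trp53+/+, 4.13, 3.79 and 4.41 with Trp53+/- and 2.86, 4.19 and 2.52 with Trp53-/-, and there every Trp53+/+ library was above the rest. Dhx58 and Zbp1, an RNA sensor of the RIG-I family and a sensor of Z-form nucleic acid, stayed at or under 1.42 CPM.

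Of the signalling proteins and transcription factors, Stat2 was at 10.4, 8.07 and 11.9 CPM in Pole4+/+ Trp53+/+, 15.1, 12.6 and 17.1 in Pole4+/+ Trp53+/- and 30, 11.7 and 10.4 in Pole4+/+ Trp53-/- cells. Its Pole4-/- levels were 20.2, 16 and 19.4 in Trp53+/+, 13.4, 12.5 and 17.1 in Trp53+/- and 13.8, 10.5 and 8.55 in Trp53-/- cells, the Pole4-/- Trp53+/+ libraries lying above all Pole4+/+ Trp53+/+ ones. Irf9, its partner in ISGF3, was at 8.71, 7.03 and 10.4 CPM with Trp53+/+, 10.1, 10.4 and 12.1 with Trp53+/- and 21.6, 8.5 and 7.84 with Trp53-/- in Pole4+/+ cells. Its Pole4-/- values were 13.2, 10.3 and 9.9 with Trp53+/+, 9.8, 8.42 and 10.5 with Trp53+/- and 9.03, 9.16 and 7.69 with Trp53-/-. Apart from replicate 1 of Pole4+/+ Trp53-/-, Irf9 stayed within 7.03 to 13.2 CPM. Irf7, which amplifies the response, was scarce: 0.544, 0.207 and 0.415 CPM with Trp53+/+, 0.716, 0.666 and 0.71 with Trp53+/- and 2.04, 0.466 and 0.323 with Trp53-/- in Pole4+/+ cells. Its Pole4-/- values were 1.2, 0.584 and 0.402 with Trp53+/+, 0.359, 0.795 and 0.615 with Trp53+/- and 0.272, 0.471 and 0.398 with Trp53-/-.

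In the OAS and PKR group, Eif2ak2 varied little, with 33.5, 26.4 and 35.7 CPM in Pole4+/+ Trp53+/+, 31.1, 31.2 and 31.9 in Pole4+/+ Trp53+/- and 46.1, 26.2 and 33.2 in Pole4+/+ Trp53-/- cells. It was at 40.9, 37.9 and 39.9 with Trp53+/+, 30, 27.3 and 36.6 with Trp53+/- and 25.6, 30.8 and 35.7 with Trp53-/- in Pole4-/- cells. Oasl2, an OAS-like protein, rose from 0.242, 0.362 and 0.593 CPM in Pole4+/+ Trp53+/+ cells to 2.93, 1.63 and 0.647 in Pole4+/+ Trp53-/- cells, groups that did not overlap. Its other levels were 0.848, 1.06 and 1.15 in Pole4+/+ Trp53+/-, 0.524, 0.501 and 0.803 in Pole4-/- Trp53+/+, 0.564, 1.12 and 1.05 in Pole4-/- Trp53+/- and 0.862, 0.576 and 1.13 in Pole4-/- Trp53-/- cells. Oasl1, too low to test, had 0 counts in all Pole4+/+ Trp53+/+ libraries and 27, 8 and 5 in Pole4+/+ Trp53-/- libraries.

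The IFIT proteins bind viral RNA, and Ifit2 was the member of the family best expressed here. It stood at 10.5, 12 and 13.7 CPM in Pole4+/+ Trp53+/+, 11.4, 10.8 and 10.8 in Pole4+/+ Trp53+/- and 19.3, 17.2 and 16.5 in Pole4+/+ Trp53-/- cells. With Pole4 lost it stood at 10.5, 10.9 and 11.2 with Trp53+/+, 11.4, 12.3 and 14.1 with Trp53+/- and 14.3, 12.5 and 18 with Trp53-/-, so that Trp53-/- libraries were above Trp53+/+ libraries in both Pole4 genotypes. Ifit1 was mostly under 1 CPM: 0.544, 0.827 and 0.712 with Trp53+/+, 0.53, 0.2 and 0.621 with Trp53+/- and 6.16, 2.02 and 0.404 with Trp53-/- in Pole4+/+ cells. With Pole4 lost the level was 1.98, 0.584 and 0.669 with Trp53+/+, 0.41, 0.748 and 1.05 with Trp53+/- and 1.45, 0.681 and 0.995 with Trp53-/-. Replicate 1 of Pole4+/+ Trp53-/- was far above the others. Ifit3 was at 0.695, 0.879 and 1.78 CPM with Trp53+/+, 0.557, 0.2 and 0.887 with Trp53+/- and 4.41, 0.621 and 0.728 with Trp53-/- in Pole4+/+ cells. Pole4-/- cells held it at 1.16, 2.25 and 1.47 with Trp53+/+, 0.615, 0.701 and 1.12 with Trp53+/- and 0.771, 0.628 and 0.862 with Trp53-/-. Its highest library was the same.

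Of the other antiviral effectors, Samd9l, an interferon-induced restriction factor, was at 12.3, 8.12 and 11.9 CPM in Pole4+/+ Trp53+/+, 10.8, 11.2 and 13 in Pole4+/+ Trp53+/- and 14, 6.09 and 3.72 in Pole4+/+ Trp53-/- cells. It was at 26.1, 17.3 and 17.5 in Pole4-/- Trp53+/+, 12.2, 12.7 and 12.9 in Pole4-/- Trp53+/- and 5.31, 5.24 and 3.05 in Pole4-/- Trp53-/- cells. The 3 Pole4-/- Trp53+/+ libraries were the highest of all 18, and the 3 Pole4-/- Trp53-/- libraries lay below every Trp53+/+ and Trp53+/- library. Bst2, which tethers budding virus to the cell, was at 3.63, 1.96 and 4.09 CPM with Trp53+/+, 3.84, 3.06 and 3.55 with Trp53+/- and 6.5, 3.22 and 2.91 with Trp53-/- in Pole4+/+ cells. In the absence of Pole4 it stood at 6.18, 3.84 and 4.68 with Trp53+/+, 4.13, 3.13 and 4.45 with Trp53+/- and 3.9, 2.41 and 1.99 with Trp53-/-. Its highest library was again the 1 that stood apart, and its lowest was replicate 2 of Pole4+/+ Trp53+/+.

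In the ISG15 and TRIM group, Trim25, a ubiquitin ligase that activates RIG-I, was at 19.8, 17 and 17 CPM in Pole4+/+ Trp53+/+, 30.2, 25.3 and 28.8 in Pole4+/+ Trp53+/- and 35.8, 32.7 and 28.7 in Pole4+/+ Trp53-/- cells. It was at 23.6, 22.6 and 21.8 in Pole4-/- Trp53+/+, 27.1, 26 and 27.6 in Pole4-/- Trp53+/- and 31, 27 and 37 in Pole4-/- Trp53-/- cells, so the level stood lowest with 2 copies of Trp53 in both Pole4 genotypes. Isg15 was at 0.333, 0.207 and 0.771 CPM with Trp53+/+, 0.822, 0.466 and 0.355 with Trp53+/- and 3.57, 1.13 and 0.404 with Trp53-/- in Pole4+/+ cells. Its Pole4-/- values were 1.42, 0.918 and 0.937 with Trp53+/+, 0.641, 1.5 and 1.45 with Trp53+/- and 0.68, 0.524 and 0.199 with Trp53-/-. It too was highest in the library that stood apart. Trim30a, a TRIM protein that restrains Toll-like receptor signalling, was at 1.98, 1.42 and 0.937 CPM in Pole4-/- Trp53+/+ and 0.408, 0.157 and 0.0663 in Pole4-/- Trp53-/- cells, from 53, 17 and 7 and 9, 3 and 1 counts. Elsewhere only replicate 1 of Pole4+/+ Trp53-/- (1.65 CPM) reached those Pole4-/- Trp53+/+ levels.

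Among the remaining roles, Parp12, a PARP that modifies proteins with mono-ADP-ribose, was at 11, 11 and 11.1 CPM with Trp53+/+, 12.6, 14.8 and 13.6 with Trp53+/- and 15.3, 14.1 and 12.2 with Trp53-/- in Pole4+/+ cells. With Pole4 lost the level was 10.7, 10.4 and 9.24 with Trp53+/+, 10.3, 11.5 and 13.2 with Trp53+/- and 13.1, 11.5 and 11.6 with Trp53-/-. In Pole4+/+ cells every Trp53+/- and Trp53-/- library was above every Trp53+/+ library. Dtx3l, a ubiquitin ligase that pairs with PARP9, was at 5.11, 4.65 and 7.71 with Trp53+/+, 10.4, 10.2 and 10.6 with Trp53+/- and 12.6, 8.38 and 4.2 with Trp53-/- in Pole4+/+ cells. Pole4-/- cells held it at 9.17, 7.43 and 8.97 with Trp53+/+, 7.9, 9.63 and 10.1 with Trp53+/- and 6.76, 5.71 and 7.09 with Trp53-/-. The genes of Dtx3l and Parp9 overlap on opposite strands of chromosome 16, as Psmb9 and Tap1 do on chromosome 17, and no source states that strand was used in counting, so reads from the shared bases cannot be told apart. Ifi35 was at 6.32, 6.31 and 6.35 CPM with Trp53+/+, 5.04, 6.72 and 7.54 with Trp53+/- and 7.98, 5.55 and 4.77 with Trp53-/- in Pole4+/+ cells. In the absence of Pole4 it stood at 7, 5.43 and 7.09 with Trp53+/+, 5.87, 6.59 and 6.44 with Trp53+/- and 5.04, 4.82 and 3.65 with Trp53-/-. Its 18 levels spanned only 3.65 to 7.98 CPM. Xaf1, which binds the apoptosis inhibitor XIAP, was at 0.967, 1.29 and 1.07 with Trp53+/+, 1.96, 2.2 and 1.69 with Trp53+/- and 4.3, 1.86 and 2.02 with Trp53-/- in Pole4+/+ cells. Its Pole4-/- values were 2.47, 2 and 1.07 with Trp53+/+, 1.38, 1.54 and 2.17 with Trp53+/- and 1.86, 1.83 and 1.52 with Trp53-/-. All 3 Pole4+/+ Trp53+/+ libraries were at most 1.29 CPM, below every other library but replicate 3 of Pole4-/- Trp53+/+.

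Tap1, a subunit of the transporter that carries peptides to MHC class I, was at 3.57, 2.27 and 4.45 CPM in Pole4+/+ Trp53+/+, 3.79, 2.46 and 4.26 in Pole4+/+ Trp53+/- and 1.87, 0.582 and 0.323 in Pole4+/+ Trp53-/- cells. In Pole4-/- cells it was 9.92, 8.93 and 9.24 with Trp53+/+, 5.15, 3.09 and 4.05 with Trp53+/- and 0.227, 0.471 and 0.464 with Trp53-/-. The 3 Pole4-/- Trp53+/+ libraries were the highest of the 18 and the 6 Trp53-/- libraries the lowest, with no overlap. Psmb8, a subunit of the immunoproteasome, was at 0.484, 0.569 and 1.13 CPM with Trp53+/+, 2.17, 2.6 and 2.31 with Trp53+/- and 1.26, 1.13 and 0.97 with Trp53-/- in Pole4+/+ cells. With Pole4 lost the level was 1.16, 0.501 and 1.47 with Trp53+/+, 1.18, 1.87 and 1.45 with Trp53+/- and 1.22, 1.05 and 0.796 with Trp53-/-. The Pole4+/+ Trp53+/- libraries were its 3 highest. Psmb9, another such subunit and the neighbour of Tap1, was too low to test, with 12, 3 and 3 counts in Pole4-/- Trp53+/+ and 1, 0 and 0 in Pole4-/- Trp53-/- libraries. Cxcl10, a chemokine that draws activated T cells, was at 0.151, 0.259 and 0.297 CPM in Pole4+/+ Trp53+/+, 0.265, 0.399 and 0.177 in Pole4+/+ Trp53+/- and 1.62, 1.4 and 0.808 in Pole4+/+ Trp53-/- cells. In Pole4-/- cells it was at 0.112, 0.167 and 0 with Trp53+/+, 0.231, 0.748 and 0.651 with Trp53+/- and 1.54, 1.05 and 1.99 with Trp53-/-, and every Trp53-/- library exceeded every other.

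**Figure D3:**
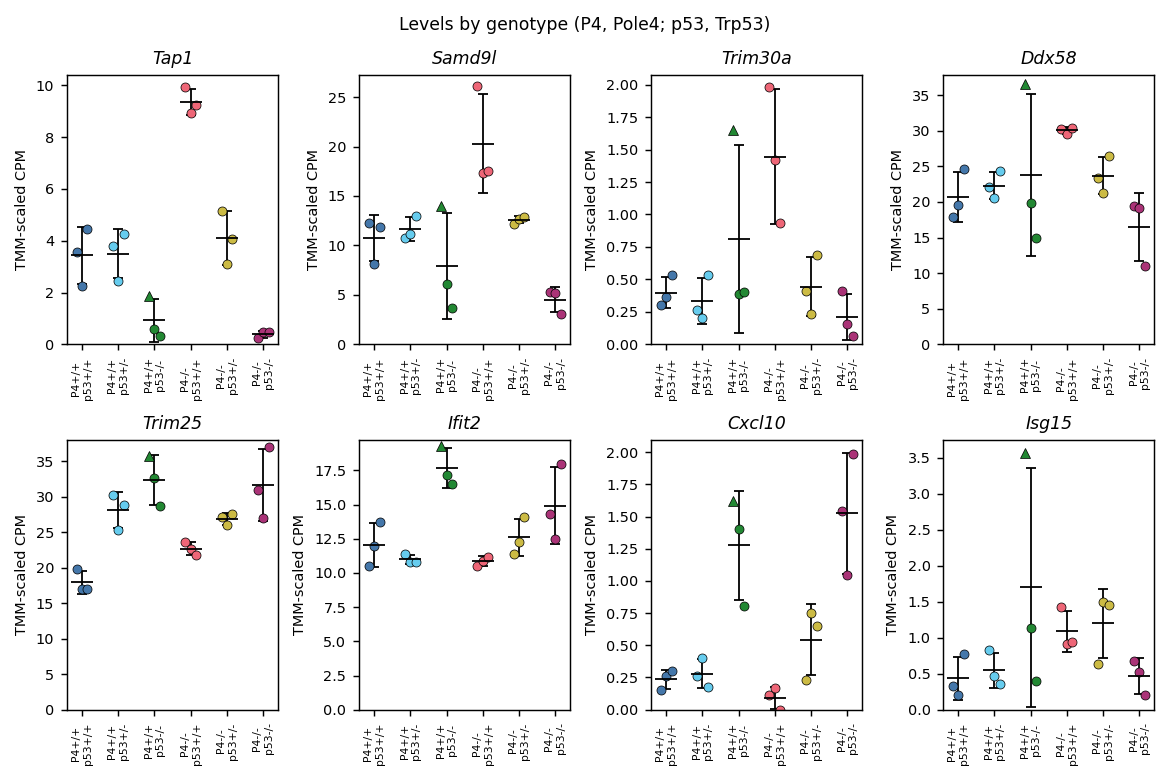
TMM-scaled CPM of 8 members by genotype, 1 point per library, with the mean (bar) and SD (whiskers, n = 3); the triangle is replicate 1 of Pole4+/+ Trp53-/-. Tap1 and Samd9l are highest in Pole4-/- Trp53+/+ cells and low in Pole4-/- Trp53-/- cells, while Trim25, Ifit2 and Cxcl10 are higher in Trp53-/- than in Trp53+/+ cells of either Pole4 genotype.

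Loss of Trp53 in Pole4-/- cells was the first comparison. In it, members changed in both directions: 7 fell and 3 rose of the 29 tested. Tap1, Trim30a and Samd9l fell most, the sensors Ddx58 and Ifih1 and the genes Parp9 and Ifi35 fell less, and Cxcl10, Trim25 and Ifit2 rose. Those 10 are 34.5% of the tested members. Of all 15710 genes tested, 42.6% were called in this comparison, 21.8% higher and 20.8% lower. Under scaling by library totals 1 member rose and 3 fell (23.7% of all genes called). On only the libraries compared 3 rose and 11 fell (50.8%), and DESeq2 called 3 higher and 7 lower (37.3%). The median log2 fold change was -0.39 over the members and -0.02 over all genes. Significance throughout is an adjusted p under 0.05 by edgeR's quasi-likelihood test with Benjamini-Hochberg adjustment over all genes tested.

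Tap1 (ENSMUSG00000037321, chr17:34187553-34197225) fell from 9.36 ± 0.509 to 0.387 ± 0.139 CPM (mean ± SD, n = 3), a log2 fold change of -4.61 ± 0.51 (SE) with an edgeR adjusted p of 1.30e-05, or 24.4-fold. Samd9l (ENSMUSG00000047735, chr6:3372257-3399572) fell from 20.3 ± 5 to 4.53 ± 1.28 CPM, a log2 fold change of -2.16 ± 0.36 (adjusted p = 3.23e-04 by edgeR). Cxcl10 (ENSMUSG00000034855, chr5:92346638-92348889) rose from 0.0931 ± 0.0851 to 1.53 ± 0.471 CPM, a log2 fold change of 3.77 ± 0.63 (adjusted p = 2.87e-04 by edgeR) that rests on 3, 2 and 0 counts at the lower end, with a 95% interval of 2.40 to 5.15. For these 3 members all Trp53-/- libraries lay on one side of all Trp53+/+ libraries. Trim30a (ENSMUSG00000030921, chr7:104409025-104465193) changed by -2.72 ± 0.68 and Ddx58 (ENSMUSG00000040296, chr4:40203773-40239828) by -0.86 ± 0.26, with adjusted p-values of 0.00502 and 0.016 by edgeR, and the increases of Trim25 (ENSMUSG00000000275, chr11:88999376-89020293) and Ifit2 (ENSMUSG00000045932, chr19:34550694-34576419) were 0.48 ± 0.12 and 0.46 ± 0.14 on the log2 scale. Tap1, Samd9l, Trim30a, Trim25 and Cxcl10 passed the test with any of the 6 libraries left out. Ddx58 and Ifit2 did so in 5 of the 6 fits. Parp9, Ifi35 and Ifih1, with adjusted p-values of 0.0466, 0.0462 and 0.0261, did so in at most 2 of the 6 fits, and without Pole4-/- Trp53-/- replicate 3 the count was 5, with 2 higher and 3 lower, against 31.5% of all genes.

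By counts, all Trp53-/- libraries lay below all Trp53+/+ libraries for 14 of the 29 members and above for 4, against 28.5% of all genes in each direction. The summed fibroblast markers were lower with Trp53 lost, going from 25381 to 32534 CPM in Pole4-/- Trp53+/+ to 14233 to 17003 in Pole4-/- Trp53-/- libraries, and epithelial markers were higher, from 10.5 to 16.7 up to 22.3 to 42.2 CPM over 7 genes, of which 2 were above 1 CPM in every library. Skeletal muscle markers went from 49.2 to 68.8 down to 21.9 to 30.5 CPM over 8 genes, of which 1 was above 1 CPM in every library, and those of neurons and glia from 56.8 to 62.8 up to 65.9 to 89.1 CPM over 7 genes, of which 2 were. Macrophage markers overlapped, at 13.3 to 35.9 and 9.63 to 48.4 CPM. Their part in the changes was not tested. In bulk RNA, fewer cells that express a gene and less RNA per cell cannot be told apart.

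Loss of Trp53 in Pole4+/+ cells raised 5 members and lowered 1. Trim25 rose from 18 ± 1.62 to 32.4 ± 3.55 CPM, a log2 fold change of 0.85 ± 0.12 with an edgeR adjusted p of 5.41e-04. Cxcl10 rose by 2.49 ± 0.53 (adjusted p = 0.013 by edgeR) and Oasl2 by 2.20 ± 0.50 (adjusted p = 0.0203 by edgeR). Ifit2 (0.56 ± 0.13) and Xaf1 (1.32 ± 0.34) rose too. Tap1 fell from 3.43 ± 1.09 to 0.925 ± 0.828 CPM, a log2 fold change of -1.76 ± 0.44 with an adjusted p of 0.0311 by edgeR. The 6 calls compare with 4.6% of all genes called, 2.23% higher and 2.37% lower, and the median was 0.85 over the members against 0.03 over all genes. All Trp53-/- libraries lay above all Trp53+/+ libraries for 7 of the 29 members (8.24% of all genes) and below for 1 (8.31%). In edgeR on these 6 libraries alone 0 members were called (0.616% of all genes) and under scaling by library totals 3 (1.22%), while DESeq2 called 7 (8.43%) and limma-voom 9 (18.8%). Skeletal muscle markers summed to 41.4 to 71.9 CPM in Pole4+/+ Trp53+/+ and 20.6 to 26.5 in Pole4+/+ Trp53-/- libraries, and markers of neurons and glia to 51.6 to 60 and 68.1 to 88.4 CPM. Their part in these changes was not tested.

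The upward shift rested on the library that stood apart. Without replicate 1 of Pole4+/+ Trp53-/-, the members' median was 0.09 and 16 of 29 were positive, while 16.9% of all genes were called. The remaining Trp53-/- libraries lay above all Trp53+/+ libraries for 7 members and below for 3, against 24.2% and 20.9% of all genes. The 6 members called were then Trim25 (0.74 ± 0.12), Cxcl10 (2.26 ± 0.58), Oasl2 (1.57 ± 0.50) and Ifit2 (0.46 ± 0.14), which were higher, and Tap1 (-2.85 ± 0.40) and Samd9l (-1.13 ± 0.27), which were lower. Xaf1 was no longer called. Stat2, at 0.79 ± 0.32 with all libraries, Isg15 at 2.04 ± 0.68 and Ifit1 at 2.09 ± 0.71 did not pass the test, with adjusted p-values of 0.175, 0.0975 and 0.103 by edgeR. Without that library they were at 0.10 ± 0.21, 0.88 ± 0.63 and 0.86 ± 0.64. Irf9 and Ddx58 turned from 0.55 ± 0.29 and 0.22 ± 0.26 to -0.12 and -0.27 without that library. Leaving out Pole4+/+ Trp53+/+ replicate 1 in its place cut the calls to 2 (2.4% of all genes), and leaving out Pole4+/+ Trp53-/- replicate 3 raised them to 9 (4.02%).

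**Figure D4:**
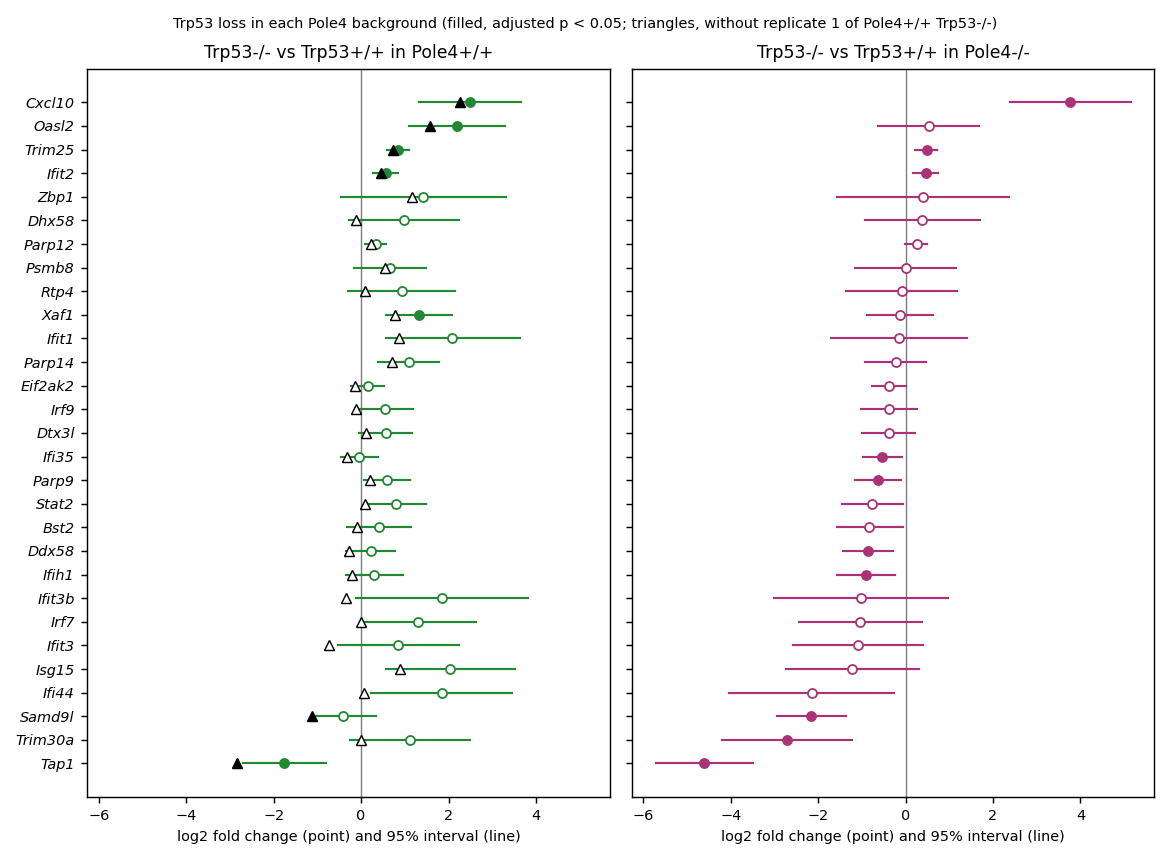
Log2 fold change of each tested member between Trp53-/- and Trp53+/+ cells, in Pole4+/+ (left) and Pole4-/- cells (right), with 95% intervals; filled symbols passed an adjusted p of 0.05, and triangles are the Pole4+/+ values without replicate 1 of Pole4+/+ Trp53-/-. Cxcl10, Trim25 and Ifit2 are filled on the right of 0 and Tap1 on the left of 0 in both panels.

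Tap1 fell, and Trim25, Ifit2 and Cxcl10 rose, in both Pole4 genotypes. These 4 of the 29 members were called in the same direction in both, against 3.9% of all genes, and the comparisons share no library. Whether the size of the Trp53 effect differed between the Pole4 genotypes was tested as an interaction. No member passed by edgeR, against 0.331% of all genes (0.178% higher and 0.153% lower), although 19 of 29 had an unadjusted p under 0.05 (28.3% of all genes did), all with a more negative effect in Pole4-/- cells. DESeq2 called 8 (13.2% of all genes) and limma-voom 6 (7.85%). The median difference was -1.22 over the members and -0.02 over all genes. Tap1 differed by -2.85 ± 0.67 (adjusted p = 0.0518 by edgeR), Samd9l by -1.76 ± 0.49 (0.0641), Stat2 by -1.55 ± 0.45 (0.0674) and Ddx58 by -1.08 ± 0.37 (0.0907), while Trim25 differed by -0.37 ± 0.16 (0.154). Without Pole4+/+ Trp53-/- replicate 1 the median was -0.71 with 0 called, against 1.07% of all genes, 10 members had an unadjusted p under 0.05, against 18.2%, and the differences were -1.79 for Tap1, -1.05 for Samd9l, -0.87 for Stat2, -0.61 for Ddx58 and -0.28 for Trim25; without replicate 2 or 3 of that genotype 9 and 16 members were called, against 12.3% and 20.1% of all genes.

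Loss of a single Trp53 copy was the next comparison, against the same Trp53+/+ libraries. In Pole4+/+ cells 2 of 29 rose, against 0.904% of all genes called and 0.496% called higher: Trim25 from 18 ± 1.62 to 28.1 ± 2.54 CPM, a log2 fold change of 0.65 ± 0.12 (adjusted p = 0.0164 by edgeR), and Psmb8 from 0.727 ± 0.35 to 2.36 ± 0.216 CPM, a log2 fold change of 1.72 ± 0.38 (adjusted p = 0.0403 by edgeR). Each was lost in at least 4 of the 6 fits with 1 library left out, and leaving out any of the 6 cut the count to 0 or 1, against 0.105% to 0.622% of all genes. Parp14, a mono-ADP-ribosyltransferase, was at 1.39, 0.982 and 2.14 and 4.08, 3.46 and 4.26 CPM, groups that did not overlap, and missed the threshold (1.40 ± 0.32, adjusted p = 0.054 by edgeR). All Trp53+/- libraries lay above all Trp53+/+ libraries for 10 of the 29 members and below for none, against 10.2% and 10.1% of all genes, and the median was 0.31 against 0.00. With Xist as a covariate 0 were called (0.331% of all genes), while DESeq2 called 3 (2.65%) and limma-voom 7 (7.11%). The Pole4+/+ Trp53+/+ libraries were female and the Pole4+/+ Trp53+/- libraries male by Ddx3y, at 0 to 0.181 and 86.5 to 89.3 CPM, so sex and Trp53 genotype cannot be told apart here. Muscle and epithelial markers were lower in these Trp53+/- libraries, at 20.3 to 28.6 and 12 to 17.4 CPM, than in the Trp53+/+ ones, at 41.4 to 71.9 and 20.8 to 34.4 CPM, and those of neurons and glia were higher, at 65.1 to 80.5 against 51.6 to 60 CPM. Their part was not tested.

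Between Trp53+/- and Trp53+/+ in Pole4-/- cells no member was called, against 5.12% of all genes (2.96% higher and 2.16% lower). At an unadjusted p under 0.05, 1 member was higher and 2 lower, while 26% of all genes passed that limit; DESeq2 called 1 (13.1% of all genes) and limma-voom 5 (24.6%). Tap1 was at 4.1 ± 1.04 CPM with 1 copy, between its levels with 2 copies and none, at -1.19 ± 0.40 (adjusted p = 0.0888 by edgeR) from Trp53+/+. Trim30a (-1.72 ± 0.62) and Samd9l (-0.70 ± 0.34) were placed the same way, with adjusted p-values of 0.101 and 0.206, and for all 3 the Trp53+/- libraries lay below every Trp53+/+ library. Non-overlap of that kind was seen in 7 of the 29 members and in 18.9% of all genes. The members' median of -0.26 changed sign to 0.05 under scaling by library totals alone, which moved the median of all genes by 0.29, and to 0.12 without Pole4-/- Trp53+/+ replicate 1. Epithelial markers were at 23.2 to 31.7 CPM in the Trp53+/- and 10.5 to 16.7 in the Trp53+/+ libraries, and their part was not tested.

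Loss of Pole4 in Trp53+/+ cells was accompanied by higher values of most members, none of which passed the test by edgeR, against 3.98% of all genes, 1.29% higher and 2.7% lower. Of the 29, 26 had a positive log2 fold change (51.3% of all genes did), the median was 0.61 against 0.01 over all genes, and 9 had an unadjusted p under 0.05, all higher, against 26.1% of all genes in either direction. The libraries did not overlap, with Pole4-/- above, for 13 members and 19.4% of all genes, and with Pole4-/- below for 1 member and 21.7%. Scaling by library totals moved the median of all genes by -0.29 and that of the members to 0.34. Tap1 was nearest to the threshold, at 3.43 ± 1.09 CPM in Pole4+/+ and 9.36 ± 0.509 in Pole4-/- cells, a log2 fold change of 1.45 ± 0.41 (adjusted p = 0.0562 by edgeR). Trim30a differed by 1.92 ± 0.64, Samd9l by 0.92 ± 0.34 and Ddx58 by 0.54 ± 0.26, with adjusted p-values of 0.0869, 0.114 and 0.203, and in each the groups did not overlap. DESeq2 called 1 member (11.2% of all genes), edgeR on these 6 libraries alone 7 (24.1%) and limma-voom with library weights 15 (33.3%), all higher. Sex differed in part, since 2 of the 3 Pole4-/- Trp53+/+ libraries were male; with Xist as a covariate the median was 0.72, and that fit called 0% of all genes and no member. Ribosomal RNA took 7.11% to 42.5% of the Pole4-/- and 5.81% to 11.2% of the Pole4+/+ counts. Fibroblast markers summed to 25381 to 32534 CPM in Pole4-/- and 16692 to 22968 in Pole4+/+ libraries, and epithelial markers to 10.5 to 16.7 and 20.8 to 34.4 CPM, in each case with no overlap. The part of ribosomal RNA and of these markers in the members' values was not tested.

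**Figure D5:**
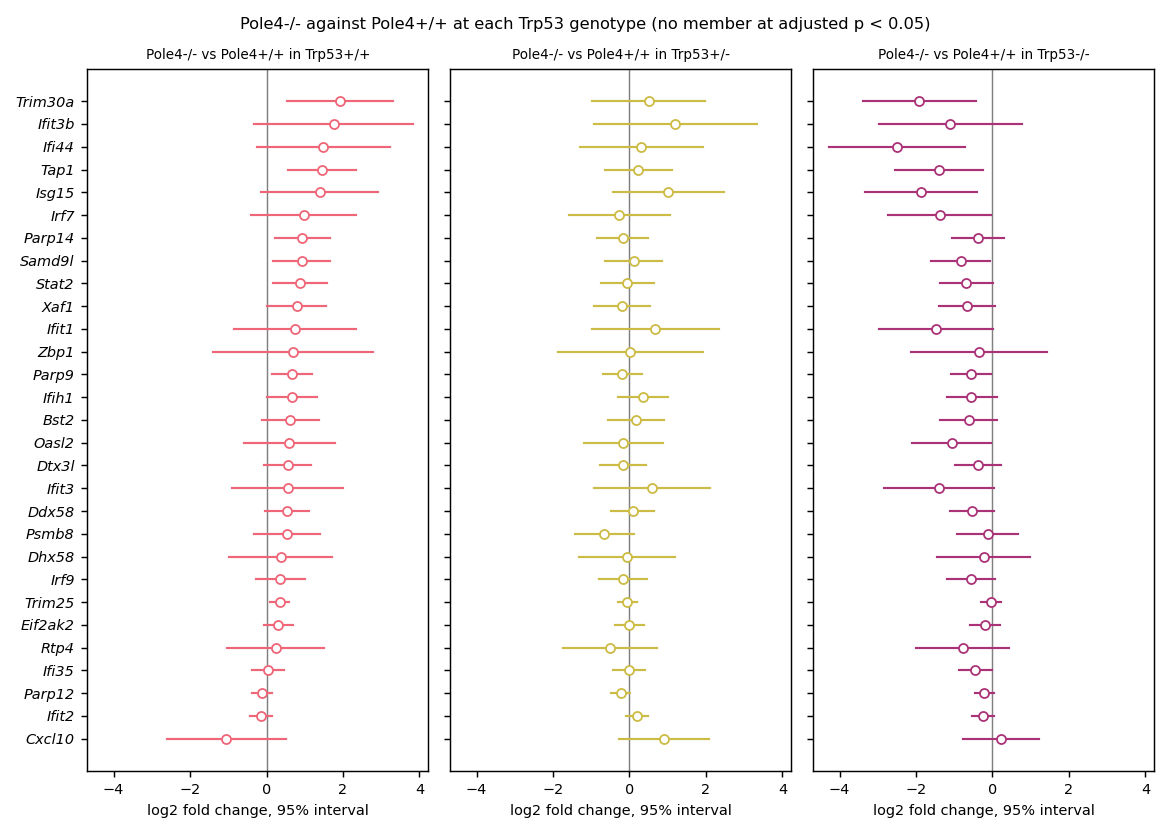
Log2 fold change of each tested member between Pole4-/- and Pole4+/+ cells, with 95% intervals, in Trp53+/+ (left), Trp53+/- (middle) and Trp53-/- cells (right). Open circles mark that no member passed an adjusted p of 0.05; most lie above 0 on the left, on both sides of 0 in the middle and below 0 on the right.

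Pole4 loss in Trp53+/- cells gave no call among the members. The background was 0.00637% of all genes called, none of the members had an unadjusted p under 0.05 (5.51% of all genes did), DESeq2 and limma-voom called 0 (0.246% and 1.57% of all genes), and the median was 0.00. The Pole4-/- libraries lay above all Pole4+/+ libraries for 0 of the 29 (6.26% of all genes) and below for 2 (6.83%). Tap1 differed by 0.23 ± 0.41, with a 95% interval of -0.65 to 1.12, and Samd9l by 0.11 ± 0.34, with an interval of -0.63 to 0.85. Muscle markers were at 47.1 to 79.8 CPM in Pole4-/- and 20.3 to 28.6 in Pole4+/+ Trp53+/- libraries, and epithelial markers at 23.2 to 31.7 and 12 to 17.4 CPM. In Trp53-/- cells the values leaned the other way. None was called, again against 0.00637% of all genes and with 0 by DESeq2 and limma-voom (0.15% and 0.00637%). Of the 29, 1 was positive, against 47.3% of all genes, the median was -0.57, and 11 had an unadjusted p under 0.05, all lower, against 10.4% of all genes. Only 1 member had all Pole4-/- libraries below, against 4.83% of all genes, and 0 had them above, against 4.32%. Without Pole4+/+ Trp53-/- replicate 1 that median was -0.09, with 9 of 29 positive, 0 called, against 0.00627% of all genes, and 0 with an unadjusted p under 0.05, against 5.45%. The Pole4-/- libraries then lay above the other 2 for 1 member and below for 1, against 8.49% and 10.7% of all genes. With all libraries kept, scaling by library totals gave a median of -1.03 for the members and shifted the median of all genes by -0.42. Ribosomal RNA took 24.7% to 30% of the Pole4-/- and 1.82% to 13.1% of the Pole4+/+ Trp53-/- counts, with no overlap, and its part was not tested. Tap1 was at 0.925 ± 0.828 CPM in Pole4+/+ and 0.387 ± 0.139 in Pole4-/- Trp53-/- cells. With 3 libraries against 3, an exact permutation test of a single member cannot go below p = 0.1, so none is used here.

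The wider pathway was read from fixed lists that hold no member. Of 13 receptors and JAK-STAT genes, all tested, none was called on Trp53 loss in Pole4+/+ cells, and 1 without replicate 1 of Pole4+/+ Trp53-/-. On Trp53 loss in Pole4-/- cells 2 rose, Jak2 (0.34 ± 0.11) and Irf1 (0.53 ± 0.13), and 3 fell, Tyk2 (-0.86 ± 0.17), Stat3 (-0.26 ± 0.09) and Ifngr2 (-0.32 ± 0.12). Ifnar1, a chain of the type I receptor, was at 63.2, 65.9 and 62.6 CPM in Pole4-/- Trp53+/+ and 65, 58.5 and 59 in Pole4-/- Trp53-/- cells. Of 24 genes that sense nucleic acid upstream of interferon, 19 were tested; on Trp53 loss 0 were called in Pole4+/+ cells (3 without that library), and 3 rose and 6 fell in Pole4-/- cells. The 3 that rose were Cgas (0.99 ± 0.19), the cytosolic DNA sensor, and Rnaseh2a (0.73 ± 0.17) and Rnaseh2b (0.84 ± 0.11), subunits of the enzyme that removes ribonucleotides from DNA. Tlr3 (-1.18 ± 0.24), Ticam1 (-0.80 ± 0.17), Ikbke (-1.45 ± 0.33), Irf3 (-0.34 ± 0.09), Mavs (-0.25 ± 0.09) and Myd88 (-0.29 ± 0.11), which relay signals of Toll-like receptors or RNA sensors, fell. In Pole4-/- cells 42.6% of all genes were called, in Pole4+/+ cells 4.6%, and without that library 16.9%.

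Of 60 other interferon-stimulated genes, 49 were tested. On Trp53 loss 7 rose and 20 fell in Pole4-/- cells, with a median of -0.45, against 42.6% of all genes called, and 2 rose in Pole4+/+ cells, against 4.6%. Without replicate 1 of Pole4+/+ Trp53-/- 3 rose and 5 fell in Pole4+/+ cells, against 16.9% of all genes, and the median went from 0.25 to -0.16. Among the 20 were the MHC class I chain H2-K1 (-0.78 ± 0.23), its partner B2m (-0.72 ± 0.17), and Tap2 (-1.60 ± 0.34) and Tapbp (-0.82 ± 0.28), which load peptides beside Tap1. Psmb10, a subunit of the immunoproteasome, was among the 7 that rose (0.48 ± 0.17), and the proteasome genes Psme1 and Psme2 were not called. B2m was at 293, 275 and 326 CPM in Pole4-/- Trp53+/+ and 191, 175 and 178 in Pole4-/- Trp53-/- cells, groups that did not overlap. The chemokine Ccl5 rose, as Cxcl10 did, by 3.73 ± 0.74 in Pole4-/- and 2.78 ± 0.60 in Pole4+/+ cells, or 2.43 ± 0.69 in the latter without that library. With Pole4 lost in Trp53+/+ cells, 3.98% of all genes were called. Ifitm1, which blocks virus entry, went from 1.18, 0.982 and 1.78 to 6.52, 6.76 and 9.1 CPM. Lgals3bp (1.98 ± 0.46), a secreted glycoprotein, was higher too and Slfn9 (-0.41 ± 0.10) lower. Sex differed in part between these groups, and with Xist as a covariate that comparison called 0% of all genes. With 1 library left out, the share called ran from 0.0493% to 4.93%. Of 17 immunity-related and guanylate-binding GTPases, 11 were tested; on Trp53 loss 5 fell and none rose in Pole4-/- cells, and 2 fell and 1 rose in Pole4+/+ cells, against the same 42.6% and 4.6% of all genes. The 1 that rose was Igtp (1.75 ± 0.48), which was at 0.88 ± 0.42 and no longer called without that library (adjusted p = 0.17 by edgeR). Of 20 NF-kappaB targets, 19 were tested. On Trp53 loss 8 rose and 2 fell in Pole4-/- cells, against 42.6% of all genes called. In Pole4+/+ cells 0 were called, against 4.6%, or 2 higher and 1 lower without that library, against 16.9%.

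How far the members moved together was described over all 18 libraries, which share genotypes. Each member's log2 CPM was correlated with the mean of the others, and 21 of 29 had a Pearson r above 0.5, with a median of 0.64. Without Pole4+/+ Trp53-/- replicate 1, 13 had an r above 0.5, 2 were below 0 and the median was 0.47. Among genes that are not members, those whose levels followed the members' mean most closely were Zfp516 (r = 0.93), Ifitm2 (0.93), Gprasp1 (0.92), Igfbp5 (0.91), Artn (0.91), Bmf (0.91), Nlgn2 (0.90), Col25a1 (0.90), Ptn (0.90) and Rnf213 (0.90). After each genotype's mean was removed, the 10 closest were Gprasp1 (0.98), Ifitm2 (0.98), Ifitm3 (0.97), Zer1 (0.97), Irgm2 (0.96), Pik3r2 (0.96), Zfp516 (0.96), Appl2 (0.96), Syt11 (0.96) and Phkb (0.96). Ifitm2, Ifitm3, Irgm2 and Rnf213 are known interferon-induced genes, whereas most of the others are not known as such. Without that library, r over levels ran from 0.76 (Ptn) to 0.89 (Ifitm2 and Igfbp5) for the 10 chosen by levels. For the 10 chosen by deviations, r over levels then ran from 0.62 (Pik3r2) to 0.89 (Ifitm2), with 0.87 for Irgm2. The latter values are of another measure than the r of deviations above, so the 2 cannot be set side by side.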

How the data were processed

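RNA of 18 MEF libraries was measured by RNA-seq. Per the labels, RNA was isolated with TRIzol (the paper's methods name RNeasy), amplified to cDNA with an Ovation kit and sequenced as paired-end reads on a HiSeq. The authors aligned the reads with STAR 2.5.2 to GRCm38 and deposited RSEM 1.3.0 expected counts per gene, unnormalized, of which 6.14% were not whole; per the submitters' processing notes their own tests used DESeq2 1.10.1, and those were not used here. The expected counts were rounded. Library totals were 9535971 to 35319918 (median 22781543).

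Genes were filtered with filterByExpr (15710 kept), scaled by TMM and fitted with edgeR 4.0.16 (quasi-likelihood, robust) over all 6 genotypes, with 12 residual degrees of freedom; 7 pairs of genotypes and 1 interaction were tested. Significance was an adjusted p under 0.05 (Benjamini-Hochberg over all genes). The SE is the log2 fold change divided by the square root of F. DESeq2 1.42.0, limma 3.58.1 (voom with quality weights), other scalings, filters and thresholds, a replicate block, an Xist covariate and leaving out each library were the alternatives. The edgeR fit was checked on simulated counts. Members, lists and tests were chosen with earlier results of these data known. Genes given library by library were the 2 highest members of each role plus Isg15, Irf7, Usp18, Cxcl10, Ifit1 and Ifit3; fold changes were named for the 3 called members of lowest p per comparison and for those among the former on which a comparison turned, and other genes were named after their values were seen. Names came from a GENCODE annotation of GRCm38 (51633 identifiers matched). Same-numbered libraries were taken as paired where all 3 correlations of their deviations were over 0.1, which held between the Pole4 genotypes in Trp53+/- cells (0.26, 0.50 and 0.29) and in no other comparison; in 3 others all 3 were positive (0.05 to 0.39); no label says that a number marks a litter or day, and the block changed no call there. No 2 libraries of a genotype agreed within sampling noise (median chi-square from 0.958 to 24 against 0.455). The 2 highest values, 24 and 17.4, were those of Pole4+/+ Trp53-/- replicate 1 against its sisters.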

Additional observations from a re-analysis of the deposited data

Results flagged for a closer look

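The effect of Trp53 loss differed between the Pole4 genotypes for 2 genes of the fixed lists that are not members, by the interaction term of edgeR. Lgals3bp, a secreted glycoprotein, changed by 0.56 ± 0.45 (log2, SE) in Pole4+/+ and -3.20 ± 0.50 in Pole4-/- cells, a difference of -3.76 ± 0.67 (adjusted p = 0.0362 by edgeR). It was at 5.74, 4.86 and 8.13 CPM in Pole4+/+ Trp53+/+ and 18.1, 4.42 and 4.37 in Pole4+/+ Trp53-/- cells, and at 27, 21.9 and 24.8 in Pole4-/- Trp53+/+ and 2.31, 3.77 and 1.86 in Pole4-/- Trp53-/- cells. Igtp, an immunity-related GTPase, changed by 1.75 ± 0.48 in Pole4+/+ and -2.20 ± 0.52 in Pole4-/- cells, a difference of -3.95 ± 0.71 (adjusted p = 0.0362 by edgeR). It was at 0.514, 0.517 and 0.653 and 3.43, 1.13 and 0.97 CPM in Pole4+/+ and at 2.1, 1.09 and 1.34 and 0.454, 0.262 and 0.265 in Pole4-/- cells in the same order. Without Pole4+/+ Trp53-/- replicate 1 the change in Pole4+/+ cells was -0.53 for Lgals3bp, of opposite sign, and 0.88 for Igtp, and the differences were -2.69 for Lgals3bp (adjusted p = 0.0217 by edgeR) and -3.10 for Igtp (adjusted p = 0.0335 by edgeR). Each passed in 4 of the 12 fits with 1 library left out, and by DESeq2 the adjusted p was 1.28e-05 for Lgals3bp and 4.44e-04 for Igtp. Neither passed under scaling by library totals, with Xist as a covariate or on only the libraries compared. Each of those fits called 0% of all genes for the interaction.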

How the results depend on the processing

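The counts of members called moved as follows with all libraries kept, with the share of all genes called by the same fit and limit in parentheses. On Trp53 loss in Pole4+/+ cells (6 called), library totals alone gave 3 (1.22%), a mean of at least 50 counts 3 (7.21%), only the libraries compared 0 (0.616%) and an adjusted p under 0.01 gave 1 (1.69%). On Trp53 loss in Pole4-/- cells (10 called), library totals gave 4 (23.7%), an adjusted p under 0.01 gave 5 (27.8%), a limit of 1 on the size of the log2 fold change 4 (14.6%), and only the libraries compared and limma-voom 14 each (50.8% and 51.7%), 3 higher and 11 lower. For Trp53+/- in Pole4+/+ cells (2 called), library totals (0.248%), the Xist covariate (0.331%) and an adjusted p under 0.01 (0.14%) gave 0, no filter (0.387%) and the fold limit (0.452%) 1, and limma-voom 7 (7.11%). For Trp53+/- in Pole4-/- cells (0 called), library totals (13.8%) and DESeq2 (13.1%) gave 1, only the libraries compared 4 (18.2%) and limma-voom 5 (24.6%). For Pole4 loss in Trp53+/+ cells (0 called), a mean of at least 50 counts (6.64%) and DESeq2 (11.2%) gave 1, only the libraries compared 7 (24.1%) and limma-voom 15 (33.3%). For the interaction (0 called), upper-quartile scaling (1.96%) and no filter (1.14%) gave 2, a mean of at least 50 counts 1 (4.23%), DESeq2 8 (13.2%) and limma-voom 6 (7.85%). Library totals, the Xist covariate and only the libraries compared gave 0 for it (0% of all genes in each). The causes were not tested. Leaving out 1 library gave 2 to 9 calls on Trp53 loss in Pole4+/+ (2.01% to 16.9% of all genes) and 5 to 9 in Pole4-/- cells (31.5% to 37.3%), 0 to 1 for Trp53+/- in either Pole4 genotype (0.105% to 3.45%), 0 for each Pole4 comparison (at most 4.93%) and 0 to 16 for the interaction (at most 20.1%), where the 16 came without Pole4+/+ Trp53-/- replicate 3. For Trp53 loss in Pole4+/+ cells, Irf9 ran from -0.12 to 0.79 and Ddx58 from -0.27 to 0.45, both negative without replicate 1 of Pole4+/+ Trp53-/-. With the replicate block the counts were 7 (5.06%) and 11 (43.9%) on Trp53 loss in Pole4+/+ and Pole4-/- cells, 3 (1.21%) and 0 (6.26%) for Trp53+/-, 1 (5.7%), 0 (0.00637%) and 0 (0%) for Pole4 loss with 2, 1 and 0 copies of Trp53, and 2 (3.49%) for the interaction; apart from Pole4 loss in Trp53+/- cells, no comparison had all 3 correlations of same-numbered libraries over 0.1, and no source says what the number stands for. Of the values of single members, 255 kept direction and side of the threshold in the alternatives that kept all libraries, 29 lost and 29 gained a call and 0 changed sign; with 1 library left out these were 194, 39, 11 and 2. Low counts limit the 10 untested members and, of those tested, Zbp1, Ifi44, Ifit3b, Dhx58, Trim30a, Cxcl10 and Irf7, each with 121 to 274 counts in all.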
